A study of Mus musculus with 94 samples.

Results

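Brain RNA of 4 male mice labelled as homozygous Hmgn1 mutants was compared with that of 4 wild-type males of the same line, 8 arrays of 94 in the series. All were C57BL/6N mice, 17 weeks old. The mutant arrays were those titled for Hmgn1 and brain, and the wild types were the brain arrays whose mouse numbers belong to the Hmgn1 line. The series also covers liver, spleen and thymus of the same mice and 2 further lines, labelled Hmgn3 and Hmgn5, each with 4 mutant and 4 wild-type brains. Liver of the Hmgn1 line had 3 wild types, without the mouse that is wild type 1 in brain. Total RNA was extracted with Trizol, copied into biotin-labelled cRNA and hybridised to Illumina arrays. The labels give neither the allele nor the part of the gene that was altered, and they do not say which brain region was taken. Each replicate was a separate mouse, and within-group spread below is between mice.

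HMGN proteins are small nuclear proteins that bind nucleosomes and compete with the linker histone H1, loosening chromatin and altering histone modification. Hmgn1 lies on mouse chromosome 16, in a stretch that corresponds to human chromosome 21, and changes in its dose are known to affect behaviour in mice. Cultured cells without HMGN1 are known for altered induction of immediate early genes such as Fos and Junb, the genes that neurons switch on within minutes of activity.

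No probe separated the labelled mutant brains from the wild types after correction. Of 19213 probes tested, limma called 0 at an adjusted p under 0.05, and the smallest adjusted p was 0.0616. At an unadjusted p under 0.05 there were 745 probes, 3.88% of those tested, of which 453 (2.36%) were higher and 292 (1.52%) lower in the labelled mutants. Groups whose 4 mutant values all lay above or all below the 4 wild-type values numbered 811 probes (4.22%). The median log2 difference, mutant minus wild type as everywhere below, was -0.0034, and 83.8% of probes differed by less than 0.2. Only 4 genes had a probe that differed by over 1 on this scale, and 3 of them were the pituitary hormone genes Gh, Prl and Pomc. The genes below are therefore described by their values on each array, and none of their differences from wild type passed the adjusted threshold in the fit of all 24 brain arrays. A different number of cells of a type and a different amount of RNA per cell cannot be told apart in such tissue samples.

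**Figure D1:**
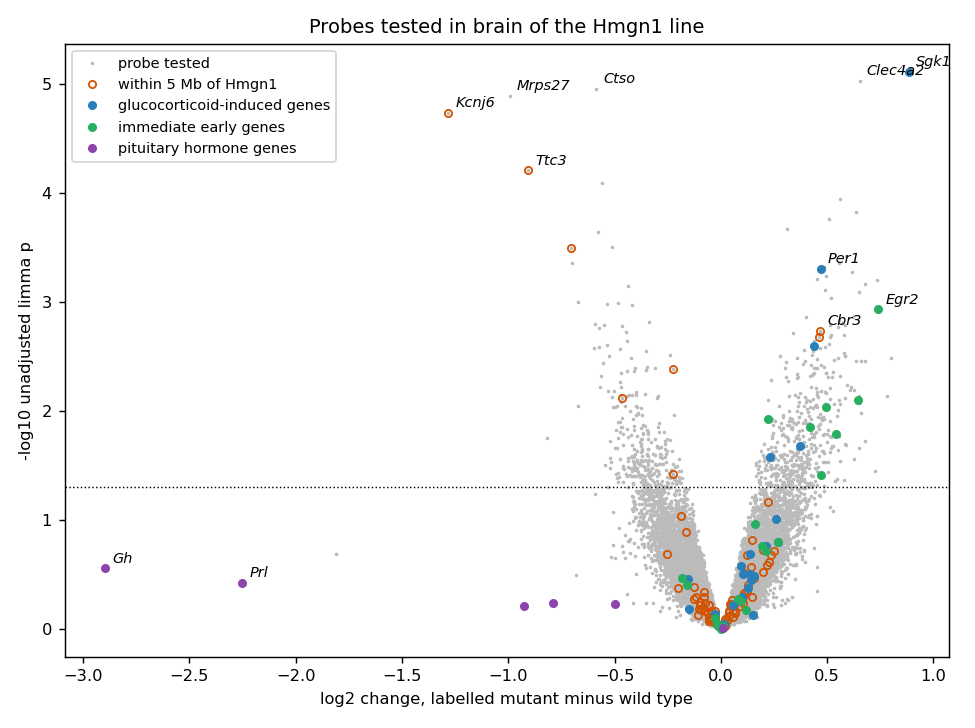
Each point is 1 of the 19213 probes tested in brain of the Hmgn1 line, with the log2 difference (labelled mutant minus wild type, 4 arrays each) on the horizontal axis and the -log10 of the unadjusted limma p on the vertical axis. Sgk1 lies at the upper right at 0.88, Kcnj6 at the upper left at -1.28, and Gh and Prl lie at the far left at low -log10 p.

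The 8 arrays were of brain, and their deposited values were alike. Median intensity was 24.1 to 24.3, and between 15942 and 15946 probes exceeded the noise limit. Brain arrays of each other line also matched one another closely, so this likeness may come from the normalization and does not measure array quality. The mean correlation of an array with the other 7 was 0.9906 to 0.993. The neuronal genes Rbfox3 and Syt1, the myelin gene Mbp, the astrocyte transporter gene Slc1a3 and the choroid plexus gene Ttr were above noise on all 8 arrays, Mbp at 15970 to 17650 in the labelled mutants and 17560 to 19320 in the wild types. The Snap25 probe was not above noise on any array, and neither were the liver gene Alb, the thymocyte gene Cd8a and the muscle gene Ckm. Pituitary hormone genes split the arrays within both groups. Of 6 such genes 5 were lower in the labelled mutants, with a median of -0.86 and 0 at an unadjusted limma p under 0.05. Gh, encoding growth hormone, was at 35.7, 14680, 504 and -2.7 in the labelled mutants and at 16180, 8638, 200 and 629 in the wild types. The array of mutant 2 and those of wild types 1 and 2 thus stood above an intensity of 1000, as did 7 of all 24 brain arrays. Prl, encoding prolactin, was at 12.4, 7239, 158 and 3.69 in the labelled mutants and 8379, 3359, 41.1 and 210 in the wild types. Some results below are also given without these 3 arrays, and a result given without that check may depend on them.

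The probe for Hmgn1 itself was a little dimmer in the labelled mutants. It gave 2320, 2158, 2288 and 2269 in the labelled mutants and 2745, 2590, 2549 and 2706 in the wild types, so that the groups did not overlap. The log2 difference was -0.23 ± 0.07 (SE), a 1.17-fold lower intensity in the mutants, with an unadjusted p of 0.00408 and an adjusted p of 0.826 by limma. An exact two-sided permutation test of the 8 values gave p = 0.0286, the smallest that 4 against 4 allows. The Hmgn1 difference was -0.19, with an unadjusted limma p of 0.0622, once the 3 arrays of high Gh were left out. Where this probe lies relative to the altered part of the gene is not given, so its signal does not show how much of the normal transcript the labelled mutants made. In the other tissues of the same line the Hmgn1 probe differed by 0.10 in liver, -0.11 in spleen and -0.41 in thymus. Its relatives Hmgn2, Hmgn3 (both probes) and Hmgn5 overlapped between groups, at -0.03, 0.05, 0.01 and 0.20.

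Sgk1 had the smallest p of all. It encodes a serine/threonine kinase that glucocorticoids induce and that regulates ion channels. Its intensity was 4420, 4760, 4413 and 5000 in the labelled mutants, against 2085, 2341, 2605 and 3114 in the wild types. Every mutant brain lay above every wild-type brain, a 1.85-fold difference in the means of log2 intensity (0.88 ± 0.15, SE; adjusted p = 0.0616 by limma). The mutant of the Hmgn3 line differed from its own wild types by -0.17 and that of the Hmgn5 line by -0.05. The difference between the lines was 1.05 against Hmgn3 (adjusted p = 0.334 by limma) and 0.94 against Hmgn5 (adjusted p = 0.375). In the same mice Sgk1 differed by 0.19 in liver, -0.33 in spleen and 0.21 in thymus, each tissue fitted alone on the deposited values. In a separate fit with the tissues quantile-normalized together, the brain difference exceeded the mean of the other tissues by 0.97 ± 0.18 (SE, adjusted p = 0.106 by limma). With the deposited normalization it exceeded that mean by 0.86 (adjusted p = 0.0546 by limma). Without the 3 arrays of high Gh the difference was 0.69 with an unadjusted limma p of 0.00236.

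Genes that glucocorticoids induce were mostly higher in the labelled mutant brains. Of 22 measured members of this list, 19 had a log2 difference above 0, 5 were higher at an unadjusted limma p under 0.05 and 0 were lower. Over 12832 genes with 1 probe each, 2.35% were higher and 1.36% lower at that threshold, and 49.2% lay above 0. The list's median was 0.14, against -0.001 for all genes. Leaving out single arrays in turn moved this median between 0.126 and 0.156. The same list had medians of -0.04 in the Hmgn3 line and 0.04 in the Hmgn5 line.

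Per1, a core clock gene that glucocorticoids also induce, came next in this list. It had intensities of 968, 1013, 944 and 1176 in the labelled mutants and 578, 844, 786 and 754 in the wild types, and its second probe differed alike, by 0.49 against 0.47 for the first. The groups did not overlap for the first probe. Per1 was also higher in the liver and spleen of the same mice, by 1.12 and 0.74, while of 16 clock genes in brain, with a median of 0.04, Per1 was the 1 at an unadjusted p under 0.05. Nfkbia, which encodes an inhibitor of NF-kappaB, was at 387, 376, 304 and 334 in the labelled mutants and 228, 216, 320 and 260 in the wild types, with wild type 3 above mutant 3. Ddit4, encoding an inhibitor of mTORC1, was at 710, 738, 777 and 640 in the labelled mutants and at 415, 549, 631 and 627 in the wild types, without overlap. Arrdc2 differed by 0.23 and overlapped. Nfkbia differed by 0.22 and Ddit4 by 0.16 once the 3 arrays of high Gh were left out.

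Other well known targets in this list had overlapping groups. Fkbp5, which encodes a chaperone that binds the glucocorticoid receptor, was at 122, 145, 130 and 172 in the labelled mutants and 170, 185, 157 and 129 in the wild types, a difference of -0.16. Tsc22d3, which encodes GILZ, differed by 0.14 at its brighter probe and overlapped. Without the 3 arrays of high Gh the list kept a median of 0.137 with 18 of 22 members above 0, but 2 members rather than 5 were higher at an unadjusted p under 0.05, where 1.79% of all probes were.

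Immediate early genes, the activity-dependent transcription factors and effectors of neurons, were also higher on most mutant arrays, but this depended on which arrays were compared. Of 21 members measured, 7 were higher and 0 lower at an unadjusted p under 0.05, 4 had groups that did not overlap, and the median difference was 0.16. Over all genes 2.28% lay wholly above the wild types. Egr2, a zinc finger transcription factor, was at 298, 338, 295 and 307 in the labelled mutants and 88.5, 205, 266 and 203 in the wild types. Arc, encoding a synaptic protein that governs AMPA receptor trafficking, was at 1403, 1692, 1688 and 1715 in the labelled mutants and 486, 1096, 1630 and 1279 in the wild types. Wild type 1 was the lowest array for both genes, and wild type 3 came closest to the mutants.

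The AP-1 genes went the same way. Fosb was at 327, 365, 339 and 363 in the labelled mutants, against 187, 234, 270 and 289 in the wild types, without overlap. Junb was at 695, 774, 674 and 822 in the labelled mutants and 294, 528, 658 and 616 in the wild types, also without overlap, while Fos, at 1045 to 1243 in 3 labelled mutants and lower in mutant 3, overlapped 436 to 1069 in the wild types. Fos and Junb were also higher in mutants of the Hmgn3 line, by 0.56 and 0.71. Egr1 was at 7834, 9171, 9031 and 8136 in the labelled mutants and 6716, 7499, 7810 and 7253 in the wild types, without overlap, and Egr4 differed by 0.42. Egr3 (-0.18), Npas4 (-0.16), Nr4a2 (-0.02) and Jun (-0.00) overlapped. The mean log2 level of the 21 genes was -0.48 in wild type 1, and 0.12 in wild type 3, which lay within the mutant range of 0.03 to 0.17.

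Leaving out wild type 1, 4 of the 21 members were higher at an unadjusted p under 0.05 and the median was 0.0836. Without the 3 arrays of high Gh, which include wild type 1, 0 of 21 members reached an unadjusted limma p under 0.05, 10 lay above 0 and the median was -0.001. Egr2 then differed by 0.35, Arc by 0.14 and Fos by 0.08. Whether the pituitary signal has a part in the difference was not tested.

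**Figure D2:**
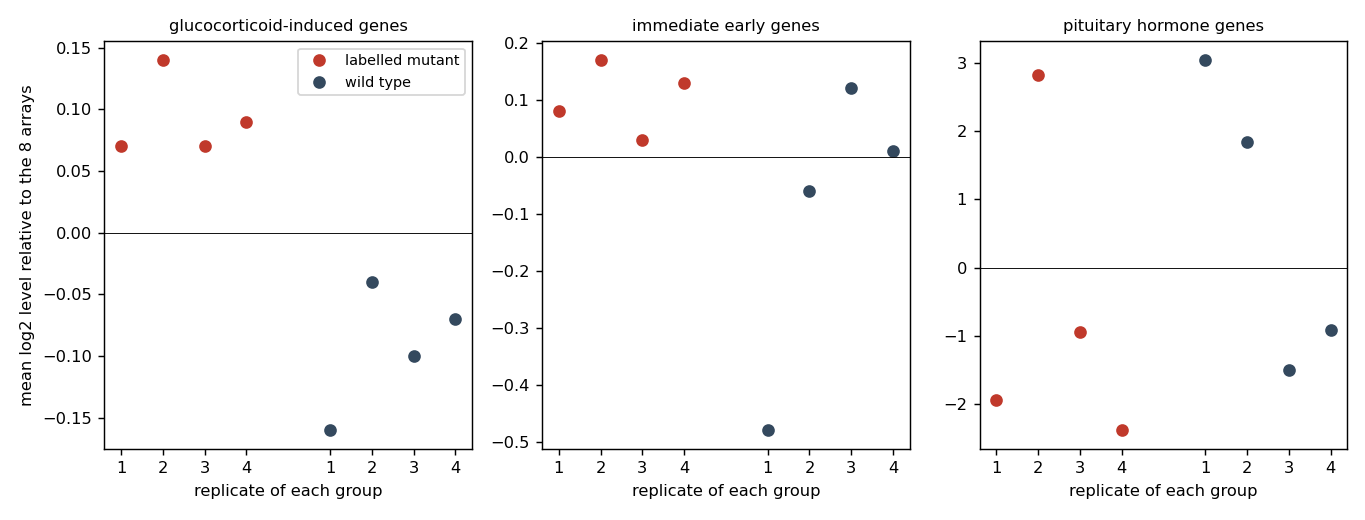
Each point is 1 array, and the vertical axis is the mean log2 level of the list's genes on that array relative to their mean over the 8 arrays, labelled mutants left of wild types. Glucocorticoid-induced genes separated the groups, at 0.07 to 0.14 in the labelled mutants and -0.16 to -0.04 in the wild types. Immediate early genes overlapped, and pituitary hormone genes were high in mutant 2 and wild types 1 and 2. Separation was not particular to the first list. Among lists not plotted, heat shock chaperones also separated the groups. So did genes linked to HMGN proteins elsewhere, at 0.05 to 0.12 in the labelled mutants and -0.31 to 0.04 in the wild types. That list of 8 measured genes shares Fos and Junb with the immediate early list, and its lowest value was that of wild type 1.

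The promoters of these genes were searched for the short sequences through which such signals are known to act. Printed are 4 of them, for genes named above at an unadjusted limma p under 0.05, although Fos overlapped between the groups. The windows hold the 250 bases before a RefSeq start on GRCm38.p6, all on the plus strand. Capitals mark matches to the glucocorticoid response element or its core ACANNNTGT, to TGACG, the core of the cAMP response element, on either strand, and to the CArG box, the site of serum response factor. The full glucocorticoid element searched holds that core with 3 fixed bases more on each side, so the matches overlap.
Sgk1 start 5, chr10:21993640-21993889: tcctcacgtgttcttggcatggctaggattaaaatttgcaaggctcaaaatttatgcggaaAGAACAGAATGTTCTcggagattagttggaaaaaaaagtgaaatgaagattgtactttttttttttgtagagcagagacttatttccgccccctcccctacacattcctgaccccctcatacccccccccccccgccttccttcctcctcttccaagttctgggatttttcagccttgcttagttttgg
Per1 start 2, chr11:69099902-69100151: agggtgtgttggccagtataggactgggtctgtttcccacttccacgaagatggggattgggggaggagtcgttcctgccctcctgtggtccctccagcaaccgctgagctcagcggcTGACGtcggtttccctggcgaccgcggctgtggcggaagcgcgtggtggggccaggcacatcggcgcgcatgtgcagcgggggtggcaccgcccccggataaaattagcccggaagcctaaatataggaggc
Egr2 start 3, chr10:67537619-67537868: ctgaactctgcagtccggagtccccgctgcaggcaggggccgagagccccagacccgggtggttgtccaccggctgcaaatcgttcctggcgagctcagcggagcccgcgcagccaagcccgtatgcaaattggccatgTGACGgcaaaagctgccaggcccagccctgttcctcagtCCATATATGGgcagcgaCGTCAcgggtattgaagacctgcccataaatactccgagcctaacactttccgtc
Fos, chr12:85473640-85473889: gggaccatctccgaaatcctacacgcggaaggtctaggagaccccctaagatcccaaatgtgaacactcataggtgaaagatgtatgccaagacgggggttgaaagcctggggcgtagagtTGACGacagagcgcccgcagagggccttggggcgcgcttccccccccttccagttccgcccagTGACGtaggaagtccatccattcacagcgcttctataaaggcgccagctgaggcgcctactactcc

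The full glucocorticoid element was found in 3 of 32851 promoter windows of 300 bases (0.00913%, both strands searched), and the Sgk1 start printed above was 1 of them. Of the 6 Sgk1 starts searched, only the printed one held the full element. Among the glucocorticoid-induced genes, 1 of the 5 that were higher and 0 of the 17 others held the full element. The core TGACG was in 20.8% of windows, ACANNNTGT in 6.85% and the CArG box in 1.63%. Counted per gene over all its starts, TGACG was in 23.0% of 27025 genes. All 5 of the immediate early genes that were higher at an unadjusted p under 0.05 and had a window (Egr2, Fosb, Egr4, Junb and Fos) held it, as did 9 of the 12 other members with a window. Among the glucocorticoid-induced genes it was in 2 of the 5 that were higher and in 7 of the 17 others. ACANNNTGT was in 1 of those 5 and in 2 of the 17 others, against 7.9% of all genes. The CArG box was in 1 of the 5 higher immediate early genes, Egr2, and in 0 of the 12 others, against 1.81% of all genes. A match is a matter of letters and not a measured binding site.

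**Figure D3:**
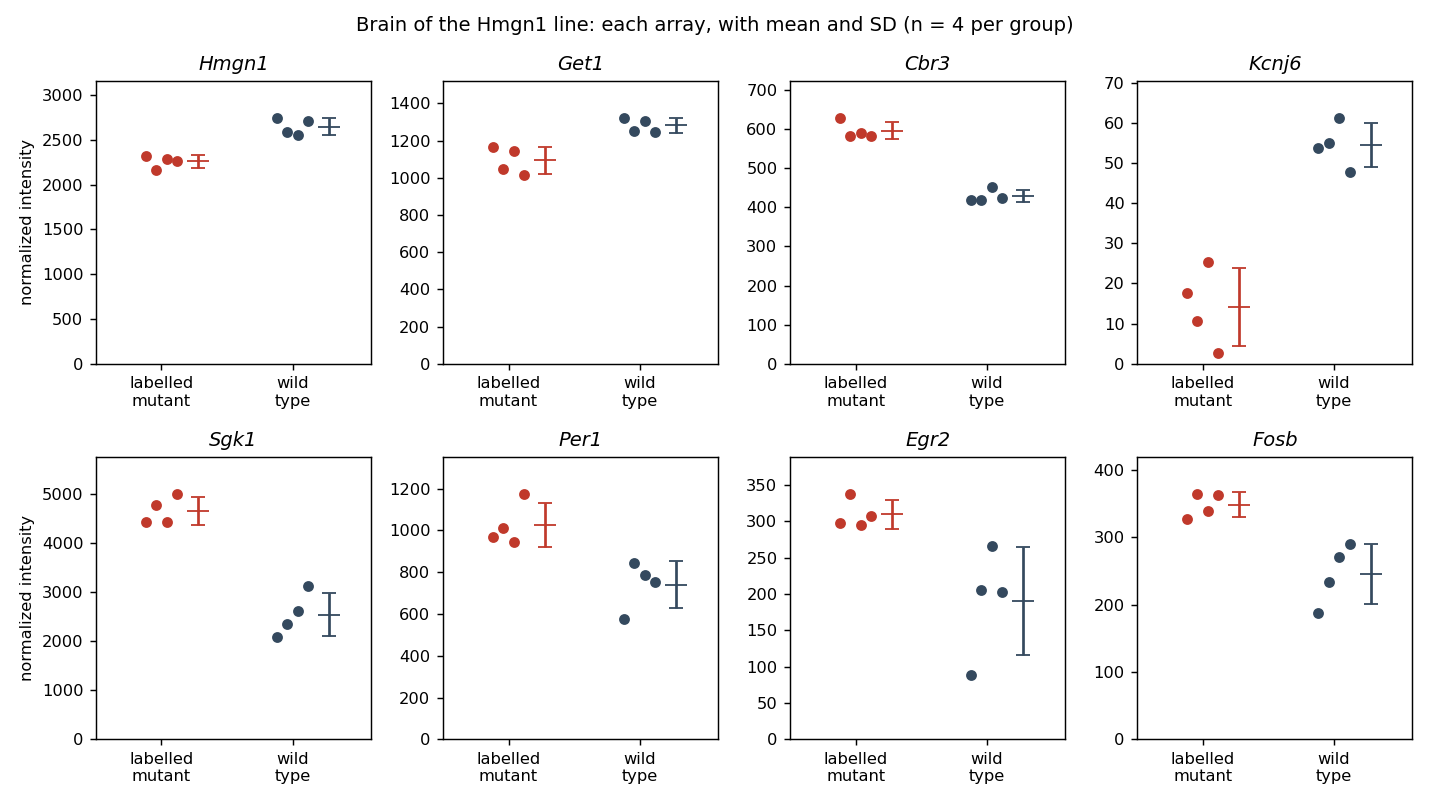
Normalized intensity of 8 genes on each array, with labelled mutants left and wild types right, and the mean with its SD beside the points (n = 4 each). Hmgn1, Get1 and Kcnj6 were dimmer on all 4 mutant arrays, and Cbr3, Sgk1, Per1, Egr2 and Fosb were brighter on all 4.

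Genes close to Hmgn1 were examined as a group, since they are inherited with the mutated locus. Within 5 Mb of Hmgn1, 84 probes for 51 genes were tested, the Hmgn1 probe among them and in both counts that follow, of which 8 (9.52%) had an unadjusted p under 0.05 and 9 did not overlap, against 3.89% and 4.19% of probes on other chromosomes. In the Hmgn3 line, whose mutation lies on another chromosome, 13.1% of the same probes had an unadjusted p under 0.05, against 10.6% elsewhere. In the Hmgn5 line 7.14% of them did, against 8.94% of all probes tested.

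Kcnj6, which encodes the potassium channel subunit GIRK2 and lies 1.12 Mb from Hmgn1, had the largest difference of these 84 probes. Its brightest probe was at 17.6, 10.8, 25.3 and 2.71 in the labelled mutants, against 53.8, 55.0, 61.3 and 47.9 in the wild types, a difference of -1.28 ± 0.24 (SE; adjusted p = 0.0704 by limma). A second Kcnj6 probe was above noise on 0 of the 4 mutant arrays and on all 4 wild-type arrays, at least 1.31-fold lower in the labelled mutants. The other 2 Kcnj6 probes were near noise in both groups and differed by 0.13 and -0.02. Of 67 potassium channel genes measured, Kcnj6 was the 1 lower and Kcnq5, at 0.44, the 1 higher at an unadjusted p under 0.05, and the list's median was 0.01. Over all genes 2.35% were higher and 1.36% lower at that threshold, near the shares of this list. Without the 3 arrays of high Gh the Kcnj6 difference was -1.25.

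Ttc3, encoding a ubiquitin ligase and 1.65 Mb away, differed at 1 probe of 6. That dim probe was at 21.4, 13.3, 15.0 and 13.8 in the labelled mutants and 47.9, 53.6, 33.7 and 40.5 in the wild types, a difference of -0.91 (adjusted p = 0.199 by limma). The other 5 Ttc3 probes overlapped and differed by -0.03 to 0.22, the brightest at 13010 to 13470 in the labelled mutants and 12360 to 14060 in the wild types. The same dim probe differed by -0.65 in spleen and -1.14 in thymus of these mice, and also by -0.41 in brain of the Hmgn3 line and -0.21 in that of the Hmgn5 line.

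Cbr3, which encodes a carbonyl reductase and lies 2.43 Mb away, was higher at both of its probes, by 0.47 and 0.46. The brighter was at 629, 582, 591 and 583 in the labelled mutants and 420, 419, 451 and 423 in the wild types, without overlap and with little spread in either group. The dimmer Cbr3 probe differed by 0.37, with an unadjusted limma p of 0.0518, once the 3 arrays of high Gh were left out. In other tissues of these mice the brighter Cbr3 probe differed by -0.45 in liver, 0.06 in spleen and 1.75 in thymus. Get1, whose protein inserts tail-anchored proteins into the endoplasmic reticulum membrane and whose gene lies next to Hmgn1 at 0.018 Mb, was at 1167, 1047, 1142 and 1017 in the labelled mutants, against 1322, 1252, 1305 and 1246 in the wild types. Its log2 difference was -0.23, without overlap and with an unadjusted limma p of 0.0383. The Get1 difference was -0.20, with an unadjusted limma p of 0.176, once the 3 arrays of high Gh were left out. Rcan1, encoding a calcineurin inhibitor, was at 847, 817, 894 and 802 in the labelled mutants and 922, 965, 939 and 943 in the wild types, without overlap but with an unadjusted limma p of 0.129. Pcp4, at 0.34 Mb, was near noise.

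Further genes on this side of chromosome 16 that passed in another tissue of these mice did not do so in brain. Pigp, needed for GPI anchor synthesis, differed by 0.01 at its brighter probe in brain, but by -0.77 in liver, -0.81 in spleen and -0.63 in thymus. Cryzl1, Brwd1, Olig1, Gart, Paxbp1 and Atp5o, and the more distant Cxadr and D16Ertd472e, differed by -0.20 to 0.24 at their probe of smallest p in brain, and their groups overlapped. For Brwd1 and Cryzl1 that probe was not one that passed elsewhere. The Brwd1 probes that passed in spleen differed by -0.08 and 0.01 in brain. The Cryzl1 probe that passed in liver differed by 0.04 in brain. Olig1, an oligodendrocyte transcription factor gene, was bright in brain, at 5655 to 6592 in the labelled mutants and 5298 to 6517 in the wild types.

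**Figure D4:**
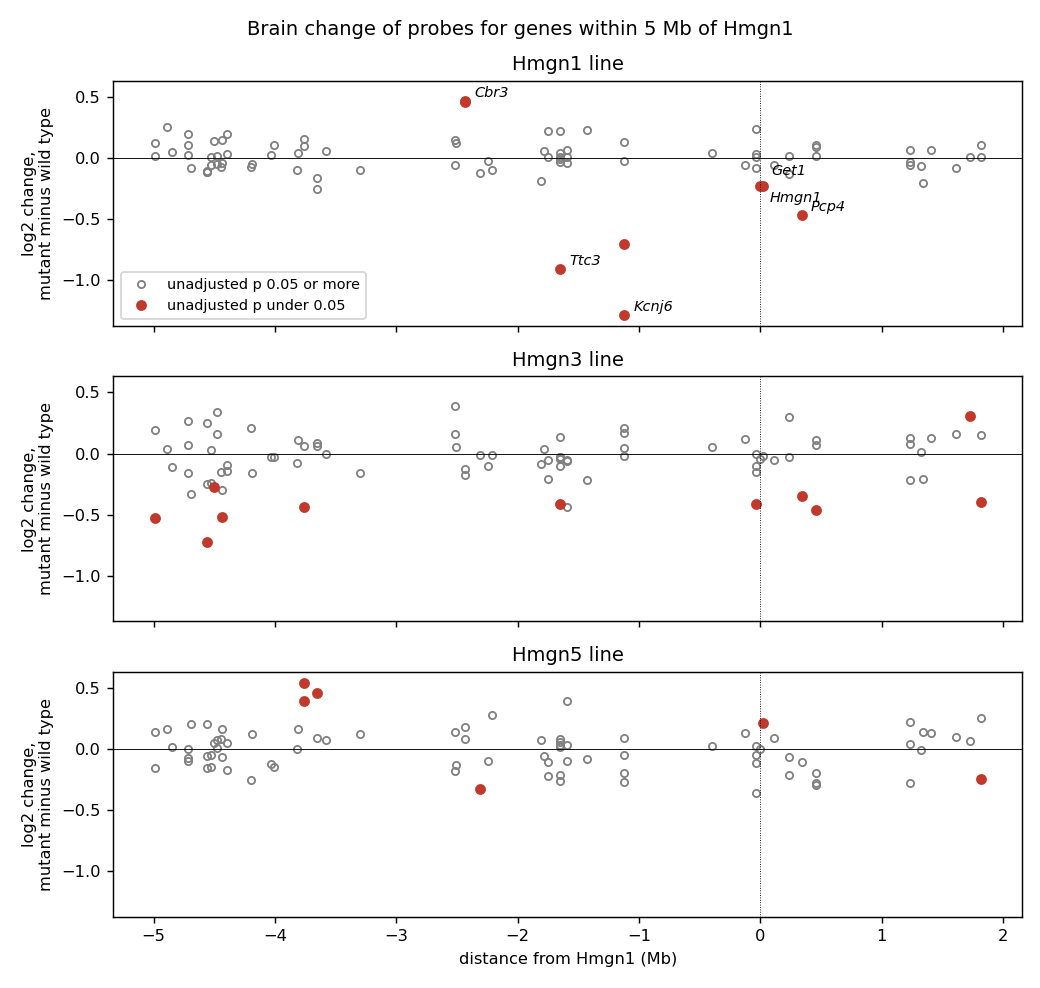
Log2 difference (labelled mutant minus wild type) of each tested probe for genes within 5 Mb of Hmgn1, plotted by distance from Hmgn1 in Mb, in brain of the Hmgn1 line (top), the Hmgn3 line and the Hmgn5 line. Filled red points have an unadjusted p under 0.05, 8 in the Hmgn1 line, 11 in the Hmgn3 line and 6 in the Hmgn5 line, and those of Kcnj6 and Ttc3 lie lowest in the top panel.

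Away from chromosome 16, Mrps27 was lower on all 4 mutant arrays. It encodes a mitochondrial ribosomal protein and was at 29.6, 80.4, 79.0 and 72.0 in the labelled mutants and 105, 162, 127 and 171 in the wild types. Mutant 1 lay far below the other 3, and the groups did not overlap (-0.99 ± 0.18, SE; adjusted p = 0.0616 by limma). In liver of the same mice it differed by -0.92. Raver2, encoding an RNA-binding protein, was at 30.7 to 38.5 in the labelled mutants and 47.4 to 76.2 in the wild types. Vps4b, whose ATPase disassembles ESCRT-III, was at 39.4 in mutant 1 and 65.3 or more in the other mutants, against 32.6 to 34.8 in the wild types. The transcription factor gene Ovol2 was at 41.9 to 65.3 in the labelled mutants and 23.8 to 39.9 in the wild types at 1 probe, while its other probes differed by 0.11 and 0.14 and overlapped.

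Many of the smallest p-values belonged to probes near the noise limit of 8.52 to 8.53. Clec4a2, a lectin receptor of myeloid cells, was at 9.93, 5.45, 14.2 and 11.7 in the labelled mutants and not above noise on any wild-type array, which bounds the fold at 1.07 or more. Vmn1r214, Actl9, Olfr316, Mcm8 and Prss38 lay at 4.45 to 17.3 in the labelled mutants, and Ctso, Zbtb6, Clcn1, Vwa1, Nol9 and Srpx2 at 33.0 or less in the wild types. With only brighter probes tested, 483 of 14898 had an unadjusted p under 0.05.

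Neurod1, which encodes a basic helix-loop-helix factor of granule neurons, was at 174, 146, 173 and 162 in the labelled mutants, against 82.2, 121, 81.8 and 74.2 in the wild types. The groups did not overlap, and the log2 difference was 0.78 (unadjusted p = 0.00729 and adjusted p = 0.959 by limma). In the Hmgn3 and Hmgn5 lines Neurod1 differed by -0.10 and -0.14 in brain. The median of 8 cerebellar genes, Neurod1 among them, was 0.02, and Gabra6, a granule cell receptor gene, overlapped at 0.30. When the brain differences were set against the mean of liver, spleen and thymus of the same mice, limma passed 1 probe at the adjusted threshold of 0.05 (0.00520%), while 6.27% lay below 0.05 unadjusted. That probe was Neurod1, which was too dim to be tested within any of the other tissues, so the call sets brain against values near the floor and compares no measured difference elsewhere.

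The difference in brain was set against those of the other lines by testing the difference of differences. Against the Hmgn3 line limma passed 0 probes at the adjusted threshold of 0.05, and 1328 probes (6.91%) lay below 0.05 unadjusted. Hmgn3 itself was among the 5 of smallest p there, with a difference of 0.01 in the Hmgn1 line and -0.56 in its own line. S100a9, a neutrophil gene, differed by 0.16 in the Hmgn1 line and by -1.11 in the Hmgn3 line. Against the Hmgn5 line 1 probe passed (0.00520%, with 6.36% below 0.05 unadjusted), that of the X-linked gene Mpp1, encoding an erythrocyte membrane scaffold protein. Mpp1 was at 351 to 401 in the labelled Hmgn1 mutants and 352 to 410 in their wild types, whereas the Hmgn5 line differed by 0.97, so the difference between the lines was -0.97 (adjusted p = 0.00176 by limma). Mutants of the Hmgn3 line themselves differed from their wild types at 2 probes after adjustment (0.0104%) and at 10.7% unadjusted, and those of the Hmgn5 line at 4 probes (0.0208%) and at 8.94%.

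Marker genes of the brain's cell types centred near 0. Medians were -0.02 for pan-neuronal genes, 0.00 for glutamatergic and 0.01 for GABAergic neurons, 0.05 for astrocytes, -0.04 for oligodendrocytes, 0.03 for microglia and -0.03 for endothelial cells and pericytes. Single members stood out, such as Elavl4, a neuronal RNA-binding protein gene, at 499 to 611 in the labelled mutants and 421 to 474 in the wild types at its brightest probe, while its other probes differed by 0.33 and -0.09 and overlapped. Glul, encoding glutamine synthetase, differed by 0.38 and the microglial cathepsin gene Ctss by 0.39, and both overlapped. Glul differed by 0.26 and Ctss by 0.40 once the 3 arrays of high Gh were left out. Summed levels overlapped between the groups for the astrocyte list (29920 to 32210 in the labelled mutants and 29750 to 30760 in the wild types) and for the oligodendrocyte list (48290 to 51610 in the labelled mutants and 50460 to 52340 in the wild types).

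Synaptic lists were as flat. Glutamate receptor genes had a median of -0.02 and none of 15 at an unadjusted p under 0.05, GABA and glycine receptor genes -0.04 with none of 12, and synaptic scaffold and vesicle genes -0.03 with none of 17. Among 32 monoamine and acetylcholine receptor genes, Htr2b (0.58) and Htr2c (0.41), both serotonin receptors near the noise limit, were higher at an unadjusted p under 0.05, against 2.35% of all genes. Without the 3 arrays of high Gh the Htr2b difference was 1.01 (adjusted p = 0.0221 by limma, and 0.194 to 1 leaving out single arrays), and without mutant 4 the Htr2c difference was 0.23. Heat shock chaperones had a median of 0.06, with Hsp90aa1 at 0.55 and overlapping. Of 18 chaperone genes 14 lay above 0, against 49.2% of all genes. Their mean log2 level was -0.01 to 0.14 in the labelled mutants and -0.06 to -0.04 in the wild types. Endoplasmic reticulum stress genes had a median of 0.01. Ddit3, a stress-induced transcription factor gene, was lower on all 4 mutant arrays at -0.30 for 1 probe and overlapped at -0.10 for the other. Of 19 DNA repair genes, a process in which HMGN1 has a known role, none reached an unadjusted p under 0.05 and the median was -0.00.

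**Figure D5:**
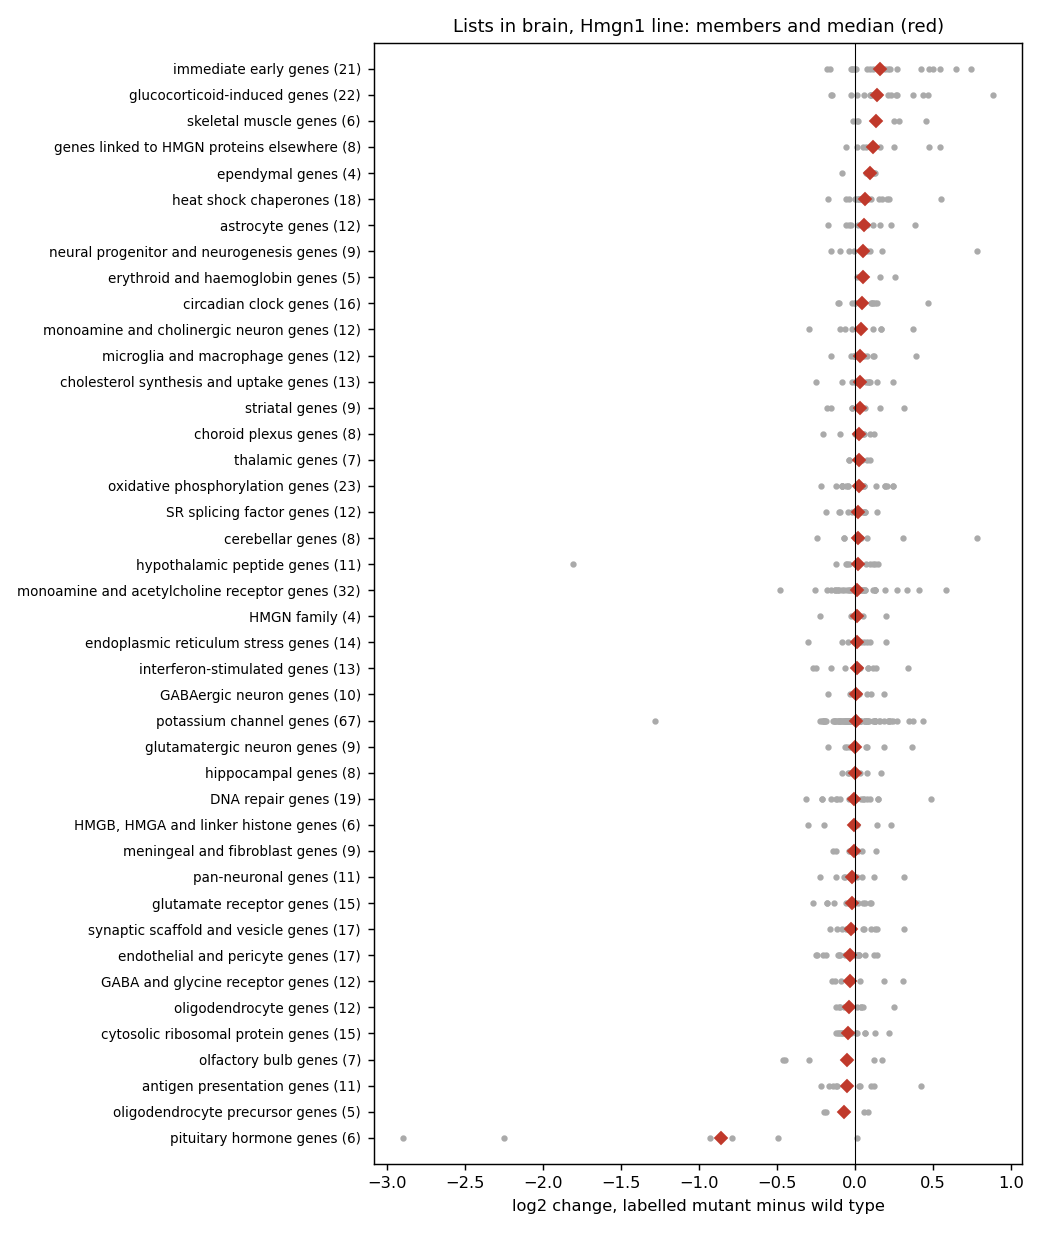
Each row is a gene list with its number of measured genes, grey points are its members and the red diamond is their median log2 difference (labelled mutant minus wild type). Medians of all lists except the pituitary hormone genes lay between -0.07 and 0.16, with immediate early and glucocorticoid-induced genes at the top.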

How the data were processed

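Total RNA was hybridised to Illumina arrays. The submitters' processing notes name GenomeStudio 2011.1. Values as deposited by the authors are probe intensity on a linear scale, with the way they were normalized not given in the sources used here. On these 8 arrays 23.1 to 23.2% of them were below 0. A second table holds 188 columns whose names match no sample label and were not used. Values were raised to at least 0, 16 was added and log2 taken, which shrinks differences of dim probes. A probe was tested where it exceeded 1.64 times the array noise (root mean square of negative values) on 3 or more of 24 brain arrays. limma 3.58.1 in R 4.3.3 fitted 6 groups with a shared spread, two-sided, with Benjamini-Hochberg adjustment over 19213 probes. A fold with one group not above noise on any array is a bound against the noise limit. Tissue differences used 31 arrays, quantile-normalized together with the mouse as a random block. Lists used 1 probe per gene, that of highest mean.

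The mouse number gave each wild type its line, and 1 mouse was placed in the Hmgn5 line by elimination. Probe names came from the platform annotation, 23978 probes with 1 symbol, 0 with several and 1719 with none, and 23962 matched RefSeq on GRCm38.p6, the source of distances and promoters. Slides and hybridisation dates are not given in the sources used here. The comparison, gene lists and rule for named genes were chosen with earlier results of these data known. Named genes were the HMGN genes, the 10 of smallest p in each direction, genes within 5 Mb of Hmgn1 at an unadjusted p under 0.05 or passing in another tissue, up to 4 members of smallest p per list, and the 5 of smallest p in each test of a difference between lines or tissues. Defining tissue markers were named too. Other list members and Rcan1 were named after their values were seen. Same-numbered mutants and wild types correlated at -0.0616, 0.0735, 0.0645 and 0.0596, so the numbers were not taken as pairs. The fit was tested on simulated data. Alternatives were other filters, offsets and normalizations, array weights, only the 8 arrays, the replicate number as a block and leaving out each array. Leaving out the 3 arrays of high Gh was added after the data were seen.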

Additional observations from a re-analysis of the deposited data

Results flagged for a closer look

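Of 138 groups of 4 arrays examined for the named genes, 13 held an array whose gap to its nearest neighbour took a larger share of the group's whole log2 range than Dixon's 95% critical value, where chance gives about 1 in 20. In 6 of the 13 the other 3 arrays lay below 0 and were raised to 0, which fixes the ratio at 1, and the other 7 of 138 are about what chance gives. The gap was 0.877 for Mrps27 (mutant 1 at 29.6, the others 72.0 to 80.4), 0.92 for Arc (mutant 1 at 1403, the others 1688 to 1715), 0.878 for Pigp (mutant 3 at 526, the others 662 to 684) and 0.872 for Nol9 (wild type 3 at 33.0, the others at 21.5 or less). For the pituitary genes Tshb and Lhb it was 1, with mutant 2 at 267 and 84.0 and the other 3 mutants below 0. Near the noise limit, it was 1 for Clec4a2, Actl9 and Neurod6 in wild types and for Pcp4 in mutants, 0.938 for Vmn1r214 in mutants, and 0.918 for Olfr316 and 0.908 for Mcm8 in wild types.

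The brain difference of Mpp1 in the Hmgn1 line minus that in the Hmgn5 line was -0.966 (adjusted p = 0.00176 by limma). The brain difference of Neurod1 exceeded the mean of the other tissues by 0.741 in the Hmgn1 line, but its probe was too dim to be tested in those tissues, so the value restates the brain difference.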

How the results depend on the processing

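The 0 probes at an adjusted p under 0.05 became 5 with no filter on dim probes, 2 with an offset of 64 (Sgk1 and Mrps27), 7 with array weights (Clec4a2, Ctso, Kcnj6, Mrps27, Sgk1, Ttc3 and Zbtb6), 2 without the 3 arrays of high Gh (Htr2b and Mip) and 0 to 1 leaving out single arrays (Clec4a2 without mutant 2, Rfx4 without mutant 4). With the replicate number as a block the count stayed 0. The 745 of 19213 probes at an unadjusted p under 0.05 became 483 of 14898 with a stricter filter, which tests fewer probes. With only the 8 arrays the count was 1223 of 16538, a larger share than the 3.88% of the main fit. The count was 1471 with array weights and 579 to 786 leaving out single arrays. For the difference from the Hmgn3 line, 0 became 1 with no filter, 1 with a floor of 1, 1 with an offset of 64, 2 with array weights (both Hmgn3 probes) and 0 to 1 without single arrays. For the difference from the Hmgn5 line, 1 (Mpp1) became 0 with the replicate block, where the smallest adjusted p by limma was 0.0903, and 1 to 2 without single arrays. For the tissue difference, 1 became 20 with the deposited normalization, 4 with an offset of 64 and 2 with no filter. The cause of these changes was not tested. The Hmgn1 probe stayed between -0.245 and -0.206 without single arrays.

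Differences near 0 changed sign without single arrays, ranging from -0.00173 to 0.0239 for Hmgn3, -0.0442 to 0.00219 for Hmgn2, -0.00113 to 0.0982 for Olig1, -0.0905 to 0.0014 for Gart, -0.0968 to 0.0313 for Paxbp1, -0.031 to 0.385 for S100a9, -0.0139 to 0.0432 for Pigp and -0.0324 to 0.0384 for Mpp1. Without the 3 arrays of high Gh, Mpp1 was at -0.0541. List medians moved in 13 cases. The floor and offset shrink differences of probes near the noise limit by construction.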

Other observations

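Haemoglobin and erythroid genes, which mark blood left in the tissue, summed to 13070 to 17370 in the labelled mutants and 12790 to 18230 in the wild types, and all 5 had differences above 0 with none at an unadjusted p under 0.05. Olfactory bulb genes summed to 383 to 859 in the labelled mutants and 688 to 1057 in the wild types, with a median difference of -0.05 over 7 genes.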
